A study of Mus musculus with 8 samples.

Results

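The 31 genes described here make cholesterol, control its synthesis through the transcription factor SREBP2, or move sterols across the liver cell surface. They were chosen by name from the pathway, and each symbol had a row in the table of 22183 genes. In the order of their roles they were 8 genes of the mevalonate pathway (Acat2, Hmgcs1, Mvk, Pmvk, Mvd, Idi1, Fdps and Ggps1), 12 genes that lead through squalene to cholesterol (Fdft1, Sqle, Lss, Cyp51, Tm7sf2, Lbr, Msmo1, Nsdhl, Hsd17b7, Ebp, Sc5d and Dhcr7), 8 regulators (Srebf2, Scap, Insig1, Insig2, Stard4, Tmem97, Mylip and Nr1h3) and 3 genes of sterol exchange at the surface (Scarb1, Abcg5 and Abcg8). All 31 passed the filter on low counts, which left 11692 genes to test.

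The knockout mice were Stat3flox/flox;Alb-Cre (4 libraries) and the control mice Stat3flox/flox (4 libraries), so both genotypes carried the floxed alleles of Stat3, a transcription factor that signals for cytokines such as interleukin 6. In the knockout, Cre is driven by the albumin promoter, which is active mainly in hepatocytes; recombination in each liver cell type was not measured. Both genotypes received alcohol by daily gavage (20%, 15 µL/g) over 2 weeks, and RNA of whole frozen liver was sequenced. Livers without alcohol were not analysed here, so the values compare genotypes under alcohol only. Age, strain and sex of the mice were not given in the labels used here.

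The liver is a main site of cholesterol synthesis. When membranes of the endoplasmic reticulum hold little cholesterol, the escort protein SCAP carries SREBP2 to the Golgi, where proteases release the part that enters the nucleus and switches on the genes of synthesis; when sterol is plentiful, the INSIG proteins hold SCAP and SREBP2 back. Hepatocytes also pass cholesterol into bile through the paired half-transporters ABCG5 and ABCG8 and exchange it with high-density lipoprotein through the receptor encoded by Scarb1.

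Promoter sequence is shown for some of the genes described below, with Hmgcs1 as a gene of synthesis for reference. Not every gene that differed is shown (Tm7sf2 is left out), and Insig1 is shown beside Insig2. RefSeq windows (GRCm38.p6) that ran from 250 bases before to 50 bases after each annotated start were found for 26 of the 31 genes; none was matched for Stard4, Fdft1, Scarb1, Sqle and Fdps. Each stretch below is printed 5′ to 3′ on the strand of its gene, and capitals mark matches on either strand to the letters TCACNCCAC (a sterol regulatory element), CCAAT (the box bound by NF-Y), GGGCGG (the box bound by Sp1) or TTCNNNGAA (the core letters of a STAT site). The marked letters of different motifs did not overlap. The first is the whole interval between divergent RefSeq starts of Abcg5 (minus strand) and Abcg8 (plus strand) at chr17:84683012-84683120, written on the plus strand. The GENCODE M21 gene of Abcg8 begins further upstream, at chr17:84676302 within Abcg5, and that start is not shown. The others lie before Hmgcs1 (plus strand, chr13:119690101-119690350), Mvd (minus strand, chr8:122443423-122443672), Ebp (minus strand, chrX:8193513-8193762), Insig2 (minus strand, chr1:121332590-121332839) and Insig1 (plus strand, chr5:28071162-28071362). Insig2 has 3 annotated starts, of which the most upstream is shown; counts per gene do not separate them.
Abcg5 to Abcg8: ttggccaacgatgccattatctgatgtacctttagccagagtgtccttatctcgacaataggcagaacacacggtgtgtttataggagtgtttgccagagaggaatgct
Hmgcs1: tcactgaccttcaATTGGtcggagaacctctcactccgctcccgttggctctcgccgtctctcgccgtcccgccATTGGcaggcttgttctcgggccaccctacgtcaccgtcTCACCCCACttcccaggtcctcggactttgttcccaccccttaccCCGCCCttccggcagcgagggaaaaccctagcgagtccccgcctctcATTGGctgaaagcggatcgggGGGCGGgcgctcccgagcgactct
Mvd: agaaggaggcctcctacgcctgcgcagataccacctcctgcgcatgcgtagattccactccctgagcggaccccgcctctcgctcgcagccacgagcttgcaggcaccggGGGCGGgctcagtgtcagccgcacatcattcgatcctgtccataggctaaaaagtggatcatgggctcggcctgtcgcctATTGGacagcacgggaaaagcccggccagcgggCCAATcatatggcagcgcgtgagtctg
Ebp: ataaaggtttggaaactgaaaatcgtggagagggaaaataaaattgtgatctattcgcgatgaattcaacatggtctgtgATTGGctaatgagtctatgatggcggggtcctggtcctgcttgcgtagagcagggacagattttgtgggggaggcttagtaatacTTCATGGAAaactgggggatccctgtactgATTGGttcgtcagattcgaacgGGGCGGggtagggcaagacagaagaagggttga
Insig2: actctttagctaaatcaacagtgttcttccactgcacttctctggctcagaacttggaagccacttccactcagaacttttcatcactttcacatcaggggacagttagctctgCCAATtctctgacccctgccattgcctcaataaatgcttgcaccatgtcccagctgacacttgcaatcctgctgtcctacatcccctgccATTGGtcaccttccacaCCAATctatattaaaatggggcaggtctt
Insig1: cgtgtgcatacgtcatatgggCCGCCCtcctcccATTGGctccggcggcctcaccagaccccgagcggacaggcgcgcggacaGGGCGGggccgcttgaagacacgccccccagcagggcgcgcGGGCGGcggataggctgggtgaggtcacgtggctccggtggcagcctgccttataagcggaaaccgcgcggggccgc

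The 109 bases between these starts of Abcg5 and Abcg8 held none of the 4 motifs (the wider windows of both genes held CCAAT outside that stretch). The stretch before Hmgcs1 held 1 sterol regulatory element, 3 CCAAT boxes and 2 GC boxes. The letters TCACNCCAC were in 1 of the 34 windows of these genes (2.94%, Hmgcs1), against 1.24% of all 32851 windows of the same length. Other forms of a sterol regulatory element were not searched for, so a window without these letters was not shown to lack one. Genes with several annotated starts gave more than 1 window, so the 34 windows stand for 26 genes. CCAAT was in 23 of the 34 windows (67.6%), against 37.4% of all windows. GGGCGG was in 24 of the 34 windows (70.6%), against 35.7% of all windows. TTCNNNGAA was in 2 of the 34 windows (5.88%, Ggps1 and Ebp), against 8.3% of all windows; in Ebp it is the run TTCATGGAA printed above. These matches describe letters and were not tested for binding.

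The libraries held 15998391 to 19474696 estimated counts each. Levels are given as CPM, counts relative to the library size after TMM scaling, and differences as log2 fold changes of knockout over control from edgeR's quasi-likelihood test, with p-values adjusted by Benjamini-Hochberg over all 11692 genes and a call at an adjusted p under 0.05. Stat3 fell to 27.6 ± 1.95 CPM in knockout livers, against 66.7 ± 13.3 CPM in control livers (SD, n = 4 each; log2 fold change −1.27, SE 0.17, adjusted p = 0.0469 by edgeR), and the groups did not overlap. Of 7 tested hepatocyte markers, 1 had a higher value (Ttr) and 1 a lower value (Hnf4a) at an unadjusted p under 0.05, and all 7 stood at 267 CPM (Hnf4a in knockout 1) or more in every library. The share of counts from Alb was 7.46% to 13.8% in knockout livers, against 8.53% to 12.9% in controls 1, 3 and 4 and 27.3% in control 2, which stood apart. Mitochondrially encoded genes took 20.1%, 22.3%, 21.5% and 19.7% of counts in knockouts 1 to 4, against 15.9%, 12.9%, 20.7% and 15.2% in controls 1 to 4, so that among the controls only control 3 lay in the range of the knockouts. Of 10 Kupffer cell and macrophage markers, 9 were lower at an unadjusted p under 0.05, and their sum was 78.9 to 124 CPM in knockout livers, against 44.99 to 604 CPM in control livers, the lowest in control 3. Of 8 stellate cell markers, 5 were higher at that p, with sums of 231 to 385 CPM in knockout livers and 173 to 267 CPM in control livers. Of 5 tested lymphocyte markers, 4 were higher at that p (Ighm, Igkc, Cd79a and Jchain) and 1 lower (Gzma). Their sums were 80.4 to 629 CPM in knockout livers and 12.5 to 28.7 CPM in control livers. Cd3e did not pass the filter. Endothelial markers (1 of 6 higher; 105 to 116 CPM in knockout and 54.6 to 129 CPM in control livers) and cholangiocyte markers (0 of 4; 35.8 to 55.6 CPM in knockout and 34.9 to 150 CPM in control livers; Krt7 did not pass the filter) overlapped between the groups. Reads of the Y-linked genes Uty, Kdm5d, Ddx3y and Eif2s3y came to 2 counts in knockout 1 and 728 to 934 in the other knockouts, against 5 and 1 in controls 1 and 2 and 1672 and 294 in controls 3 and 4. In these bulk samples, fewer cells of a type and less RNA per cell cannot be told apart.

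None of the 31 genes was called by edgeR, and none by limma-voom, which called 0 of all genes. Across all genes, edgeR called 0% higher and 0.0342% lower in knockout livers (4 genes). At an unadjusted p under 0.05, 3 of the 31 were higher (Mvd, Tm7sf2 and Ebp) and 3 lower (Insig2, Abcg5 and Abcg8), together 19.4%, against 14.0% of all genes (5.55% higher and 8.47% lower). The 4 libraries of a genotype lay wholly above those of the other in 4 genes that were higher in knockout (Mvd, Fdps, Tm7sf2 and Ebp) and 2 that were lower (Abcg8 and Insig2), against 3.22% and 3.86% of all genes. DESeq2 called 1 of the 31 (Abcg8, adjusted p = 0.0244) and 2.30% of all genes.

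**Figure D1:**
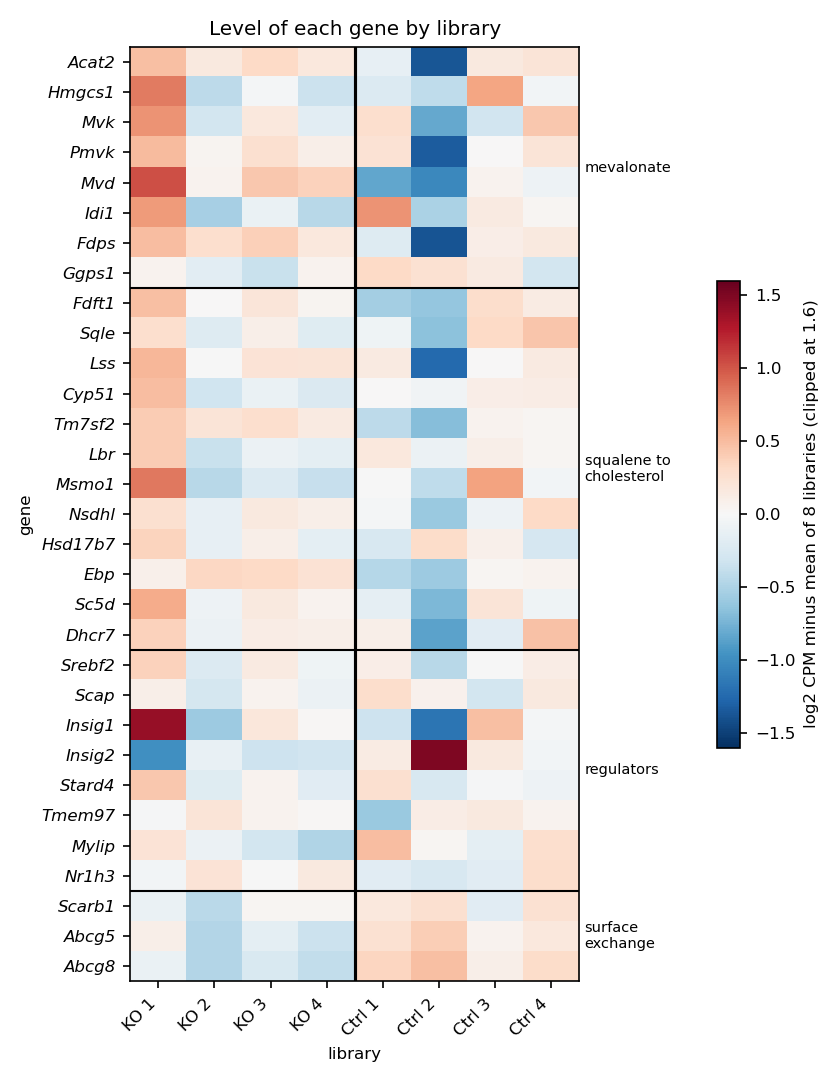
Level of each of the 31 genes (rows, grouped by role) in each library (columns, 4 knockout libraries left of 4 control libraries), as log2 CPM minus the gene's mean over the 8 libraries, with the colour scale clipped at 1.6. Knockout 1 is the reddest library in 6 of 8 mevalonate genes and 8 of 12 genes from squalene to cholesterol, and control 2 the bluest in 5 of 8 and 8 of 12, while Abcg8 is blue in all knockout libraries and red in all controls.

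In the mevalonate pathway, 6 of 8 genes had higher values in knockout livers and 2 lower ones, with a median log2 fold change of 0.26, against −0.03 over all genes tested. Mvd, the decarboxylase that makes isopentenyl diphosphate, had the largest difference. Its levels were 28.2, 14.3, 18.5 and 17.9 CPM in knockouts 1 to 4, against 7.75, 6.74, 14.3 and 13.1 CPM in controls 1 to 4. Knockout 1 was highest and controls 1 and 2 lowest, and the groups met without overlapping at knockout 2 and control 3. The log2 fold change was 0.91 (SE 0.28, 95% interval 0.29 to 1.53; unadjusted p = 0.00781, adjusted p = 0.227 by edgeR). Fdps makes farnesyl diphosphate, the branch point to sterols and prenyl groups. Its levels were 325, 279, 300 and 260 CPM in knockouts 1 to 4, against 201, 88.6, 248 and 258 CPM in controls 1 to 4. Control 2 alone was far below the rest, and knockout 4 and control 4 were nearly equal. The log2 fold change of Fdps was 0.55 (SE 0.29, adjusted p = 0.415 by edgeR), and 0.30 without control 2. Fdps shares 1124 exonic bases with the gene model Gm43738 on the same strand, so how reads were divided between them is uncertain.

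Hmgcs1 encodes the synthase that forms HMG-CoA, the substrate of the rate-limiting step, and was chosen for its values by library after they were seen. It stood at 635, 269, 350 and 283 CPM in knockouts 1 to 4, against 307, 271, 554 and 346 CPM in controls 1 to 4. Knockout 1 and control 3 were high and the other 6 libraries lay between 269 and 350 CPM, so the genotypes overlapped widely. The log2 fold change was 0.06 (95% interval −0.63 to 0.75). For the remaining mevalonate genes the log2 fold changes were 0.45 for Acat2, which condenses acetyl-CoA and has a close paralog (Acat3) in the table, 0.18 for the kinase Mvk, 0.34 for the kinase Pmvk, −0.18 for the isomerase Idi1 and −0.21 for Ggps1, which makes the geranylgeranyl donor. Their unadjusted p-values were 0.143, 0.548, 0.269, 0.579 and 0.322 in that order, and all 5 overlapped between genotypes. Knockout 1 was the highest knockout library in 8 of 8 mevalonate genes, and control 2 the lowest control in 7 of 8. Control 2 also had the highest Alb share, whose part in this was not tested. Without control 2 the median log2 fold change of the 8 genes was 0.04, without knockout 1 it was 0.09 and without control 4 it was 0.42.

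Of the 12 genes from squalene to cholesterol, 8 had higher values in knockout livers and 4 lower ones, with a median log2 fold change of 0.17. That median was 0.08 without control 2, 0.09 without knockout 1 and 0.35 without control 4. Tm7sf2 and Lbr encode sterol reductases that act on the same double bond. Tm7sf2 had 145, 128, 133 and 122 CPM in knockouts 1 to 4, against 82.5, 68.4, 114 and 112 CPM in controls 1 to 4. The 4 knockout libraries were close together and above all controls, of which controls 1 and 2 were lowest. Its log2 fold change was 0.48 (SE 0.19, unadjusted p = 0.0269, adjusted p = 0.304 by edgeR). Because 532 exonic bases of Tm7sf2 are shared with Vps51 on the same strand, how reads were divided between those genes is uncertain. Lbr, in contrast, had a log2 fold change of −0.07 (95% interval −0.51 to 0.36), and was also far lower in level, at 1.39 CPM per kb of exon in knockout and 1.46 in control livers, against 30.0 and 21.4 for Tm7sf2.

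Ebp, the sterol isomerase encoded on the X chromosome, had 176, 210, 209 and 195 CPM in knockouts 1 to 4, against 121, 112, 170 and 173 CPM in controls 1 to 4. Unlike most synthesis genes it was lowest among the knockouts in knockout 1, which still lay above control 4. The log2 fold change was 0.45 (SE 0.18, unadjusted p = 0.0320, adjusted p = 0.317 by edgeR). Msmo1, a methyl oxidase chosen for its values by library after they were seen, followed Hmgcs1 in its order of libraries at the top: 273, 111, 130 and 118 CPM in knockouts 1 to 4, against 151, 115, 237 and 148 CPM in controls 1 to 4. Knockout 1 and control 3 were high and the other 6 libraries lay between 111 and 151 CPM, so the log2 fold change was −0.04 (95% interval −0.74 to 0.66).

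The other 8 genes between squalene and cholesterol overlapped between genotypes. Log2 fold changes were 0.33 for squalene synthase (Fdft1), −0.07 for squalene epoxidase (Sqle), 0.38 for lanosterol synthase (Lss; 0.15 without control 2), −0.05 for lanosterol demethylase (Cyp51), 0.16 and 0.08 for Nsdhl and Hsd17b7, which act after Msmo1 in removing methyl groups, 0.35 for the sterol desaturase Sc5d and 0.17 for the reductase Dhcr7. Their unadjusted p-values ran from 0.154 (Sc5d) to 0.807 (Cyp51). Fdft1 shares exonic bases with Ctsb on the other strand (774 bases), and 8 of the 31 genes overlap an exon of another protein-coding gene; whether counting used the strand is not known here. Per kb of exon, Sc5d was the most abundant of all 31 in knockout livers and second in control livers, at 121 ± 26.4 CPM per kb in knockout and 95.1 ± 23.5 CPM per kb in control livers (SD, n = 4 each). Knockout 1 was the highest knockout library in 11 of these 12 genes and control 2 the lowest control in 11 of 12.

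**Figure D2:**
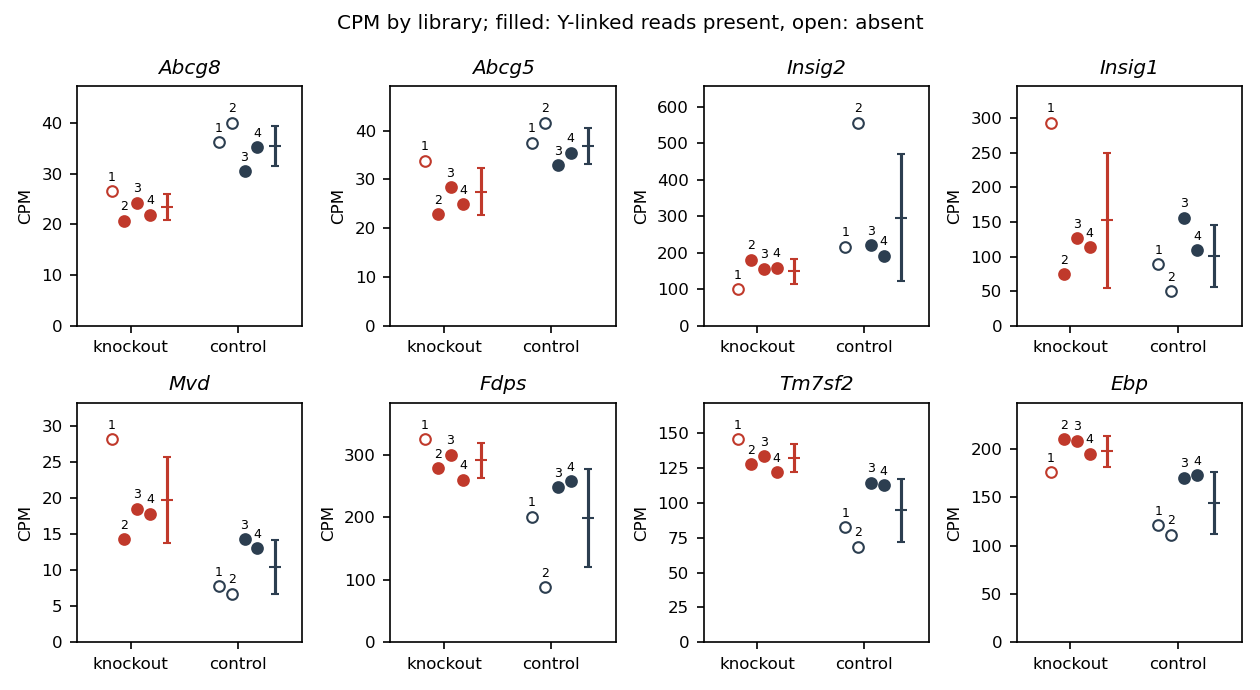
Level in CPM (y axis, from 0) of 8 genes in 4 knockout libraries (left, red) and 4 control libraries (right, dark blue), numbered by replicate, with the mean and SD of each group as a bar; filled points have Y-linked reads and open points lack them. Abcg8 and Insig2 lie lower, and Mvd, Fdps, Tm7sf2 and Ebp higher, in all knockout libraries than in all controls; Abcg5 and Insig1 overlap between genotypes.

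Among the regulators, Insig2 had the largest log2 fold change of all 31 genes, and Insig1 differed in the opposite direction; no genes of the 31 ranged more widely over the 8 libraries. Insig2 had 100.3, 181, 157 and 160 CPM in knockouts 1 to 4, against 216, 556, 220 and 192 CPM in controls 1 to 4. All knockout libraries lay below all controls, knockout 1 was the lowest of all and control 2 was far above the rest. The log2 fold change of Insig2 was −0.99 (SE 0.34, 95% interval −1.74 to −0.23; unadjusted p = 0.0154, adjusted p = 0.265 by edgeR), and −0.49 without control 2. Insig1, itself a target of SREBP2, had 294, 74.9, 127 and 114 CPM in knockouts 1 to 4, against 89.1, 49.9, 156 and 110 CPM in controls 1 to 4. Knockout 1 was highest and control 2 lowest, the reverse of their places in Insig2, and the other 6 libraries were mixed between genotypes. Its log2 fold change was 0.59 (SE 0.43, adjusted p = 0.551 by edgeR), and 0.06 without knockout 1.

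The remaining 6 regulators differed little between genotypes relative to their spread. Srebf2, which encodes SREBP2, averaged 22.8 ± 4.02 CPM in knockout and 21.1 ± 3.56 CPM in control livers (SD, n = 4 each; log2 fold change 0.11, 95% interval −0.28 to 0.50). Scap averaged 56.6 ± 6.62 CPM in knockout and 61.5 ± 9.94 CPM in control livers (log2 fold change −0.12, 95% interval −0.48 to 0.24). Those intervals leave room for moderate differences in either direction. Log2 fold changes were 0.06 for the sterol carrier gene Stard4, 0.10 for Tmem97, whose product binds sterols in the endoplasmic reticulum, −0.32 for Mylip, the ubiquitin ligase that degrades lipoprotein receptors, and 0.15 for Nr1h3, the oxysterol receptor LXRα. Their unadjusted p-values were 0.736, 0.580, 0.183 and 0.350. Over the 8 regulators the median log2 fold change was 0.08, with 5 above 0 and 3 below.

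At the cell surface, all 3 genes had lower values in knockout livers, with a median log2 fold change of −0.42. Abcg8 had 26.5, 20.7, 24.2 and 21.9 CPM in knockouts 1 to 4, against 36.2, 40.1, 30.5 and 35.2 CPM in controls 1 to 4. The groups did not overlap, and knockout 1 and control 3 were the closest pair across them. Its log2 fold change was −0.60 (SE 0.14, 95% interval −0.92 to −0.29; unadjusted p = 0.00139, adjusted p = 0.139 by edgeR), the smallest p of the 31 genes. Abcg5, its partner, had 33.8, 22.8, 28.4 and 24.9 CPM in knockouts 1 to 4, against 37.5, 41.6, 32.9 and 35.5 CPM in controls 1 to 4. Knockout 1 lay above control 3, and otherwise the knockouts were lower. The log2 fold change of Abcg5 was −0.42 (SE 0.16, unadjusted p = 0.0205, adjusted p = 0.285 by edgeR). The exons of Abcg5 and Abcg8 share 82 bases on opposite strands. Scarb1 had 48.0, 38.4, 52.6 and 52.8 CPM in knockouts 1 to 4, against 58.0, 61.8, 45.6 and 61.0 CPM in controls 1 to 4. Knockouts 3 and 4 lay above control 3 there, and its log2 fold change was −0.24 (95% interval −0.59 to 0.12; unadjusted p = 0.167).

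The order of libraries in the surface genes was not that of the synthesis genes. Control 2 was the highest of all libraries in 3 of 3 surface genes and the lowest control in 7 of 8 mevalonate genes and 11 of the 12 genes after squalene, while knockout 2 was the lowest of all in 3 of 3 surface genes. Control 3, which had the lowest sum of Kupffer cell markers, was the lowest control in 3 of 3. Many markers of Kupffer cells, stellate cells and lymphocytes differed between genotypes at an unadjusted p under 0.05, as given above. The Kupffer and stellate cell sums overlapped between genotypes, and Gzma went against the other tested lymphocyte markers. The mitochondrial share of counts was higher in knockout livers than in controls 1, 2 and 4. It was lowest in control 2 and as high as in the knockouts in control 3. The part of these differences in the surface genes was not tested. Without control 3 the log2 fold change of Abcg8 was −0.67 (adjusted p = 0.0380 by edgeR, so that it was called), and without control 2 it was −0.54 (adjusted p = 0.254). With control 3 left out, edgeR called 324 of all genes, against 4 with every library, so that call was not particular to Abcg8. Over all alternatives run, the log2 fold change of Abcg8 lay between −0.67 and −0.52, and its adjusted p between 0.0244 and 0.463. Without controls 2 and 3, a choice made after the values were seen, the log2 fold changes were −0.61 for Abcg8, −0.41 for Abcg5, −0.45 for Insig2, 0.93 for Mvd, 0.35 for Fdps, 0.44 for Tm7sf2 and 0.43 for Ebp.

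**Figure D3:**
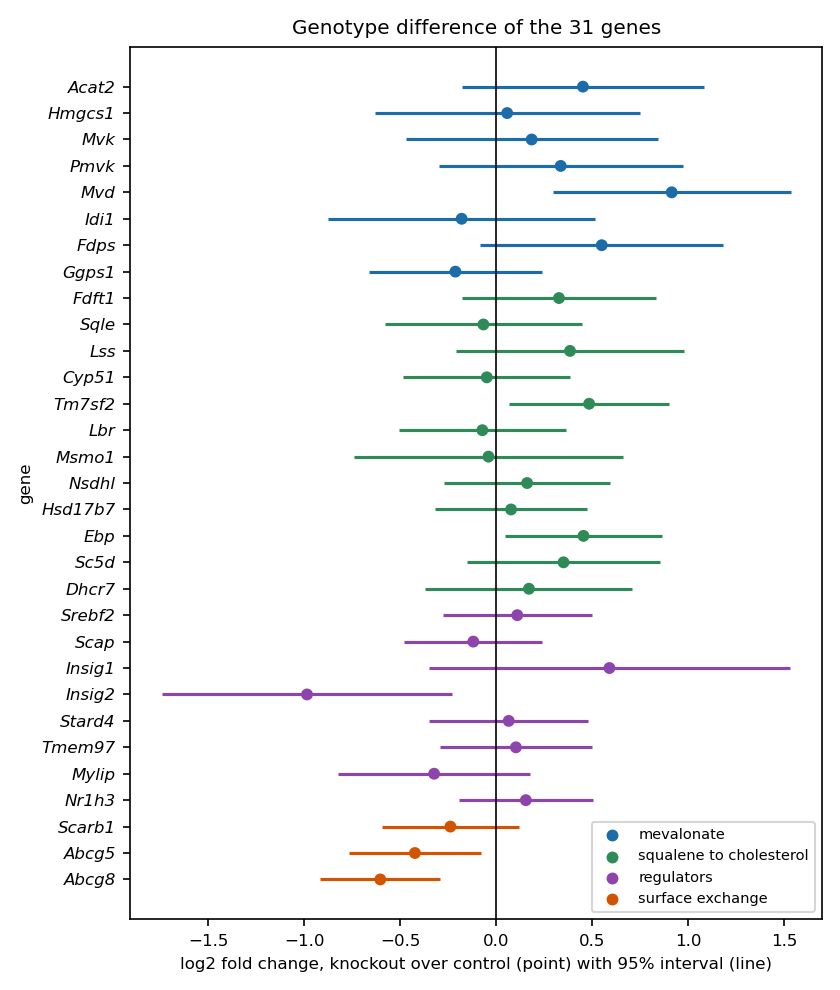
Log2 fold change of knockout over control (x axis, points) with 95% intervals (lines) for the 31 genes (y axis), coloured by role. The intervals of Mvd, Tm7sf2 and Ebp lie above 0 and those of Insig2, Abcg5 and Abcg8 below 0 before adjustment, and the others include 0.

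The genotypes were unequal in Y-linked reads, with 1 knockout and 2 control libraries lacking them and 3 knockout and 2 control libraries holding them. A model with genotype, the presence of Y-linked reads and their interaction was therefore fitted after the data were seen. Among libraries lacking Y-linked reads, the median log2 fold change of knockout over control was 0.99 for the mevalonate genes, 0.63 for the genes from squalene to cholesterol, 0.17 for the regulators and −0.32 for the surface genes, against −0.04 over all genes. Among libraries with Y-linked reads it was −0.03, −0.11, −0.08 and −0.43 in the same order, against −0.02 over all genes. The medians of both groups of synthesis genes were thus above 0 where Y-linked reads were absent (Ggps1, at −0.22, was an exception among the mevalonate genes). Where they were present, the mevalonate median was close to that over all genes. There Mvd (0.31), Fdps (0.14), Acat2 and Pmvk were above 0 and the other mevalonate genes below. Ebp (0.25), Tm7sf2 (0.17), Lss and Hsd17b7 were above 0 and the other genes from squalene to cholesterol below. The median of the surface genes was below 0 in both.

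The interaction, which is the difference between those genotype differences, was below 0 in 27 of the 31 genes (all genes, 48.5%). It had an unadjusted p under 0.05 in 10 of the 31 (32.3%), against 9.41% of all genes, and an adjusted p under 0.05 in none (1 gene of all was called). For Insig1 the genotype difference was 2.08 without and −0.34 with Y-linked reads (interaction −2.42, SE 0.50, unadjusted p = 0.00102, adjusted p = 0.411 by edgeR). For Mvd it was 1.95 without and 0.31 with them (interaction −1.65, SE 0.29, unadjusted p = 0.000377, adjusted p = 0.314). Hmgcs1 had 1.14 without and −0.58 with them (interaction −1.72, SE 0.38, unadjusted p = 0.00149, adjusted p = 0.411). Insig2 went the other way, with −1.94 without and −0.31 with them (interaction 1.63, SE 0.58, unadjusted p = 0.0209, adjusted p = 0.483). Abcg8 differed by nearly the same amount in both, −0.52 without and −0.56 with them (interaction −0.04, SE 0.25, unadjusted p = 0.893). Since only knockout 1 was a knockout library without Y-linked reads, and control 2 was 1 of the 2 such controls, the interaction cannot be told apart from the differences of those single libraries.

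**Figure D4:**
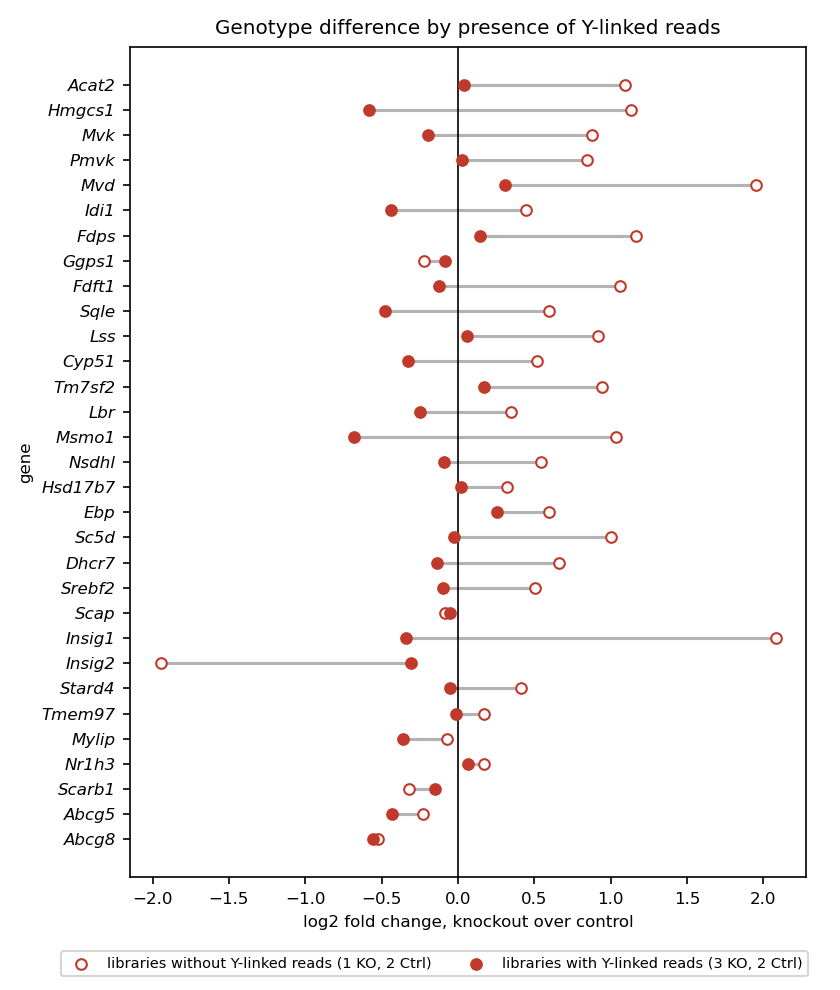
Log2 fold change of knockout over control (x axis) for each of the 31 genes (y axis), among libraries lacking Y-linked reads (open circles, 1 knockout and 2 controls) and among those with Y-linked reads (filled circles, 3 knockouts and 2 controls). Open circles lie right of filled ones in most synthesis genes, most widely in Hmgcs1, Msmo1 and Mvd, and still more widely in the regulator Insig1. In Insig2 the order is the opposite and in Abcg8 the circles nearly coincide.

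At an unadjusted p under 0.05, 5.55% of all genes were higher in knockout livers and 8.47% lower, which is the background for the short lists here. None of 10 genes that process SREBP or turn over its partners was called by edgeR, and 2 were higher at that p. These were Ubxn4, which serves in degradation at the endoplasmic reticulum (log2 fold change 0.38, unadjusted p = 0.0339), and Spring1, which is needed for the protease that cleaves SREBP (0.39, unadjusted p = 0.0321); the median of the 10 was 0.01. Of 13 genes of intracellular sterol transport and storage, none had an unadjusted p under 0.05 and 11 had values below 0 (median −0.08). Of 10 genes of the isoprenoid branches, Rabggta was higher (0.52, unadjusted p = 0.0451) and Rabggtb lower (−0.36, unadjusted p = 0.0274); their products are the subunits of an enzyme that prenylates Rab proteins. Of 7 genes of LXR action other than Nr1h3, 1 was higher at that p, Pltp, the phospholipid transfer protein of plasma. It averaged 84.2 ± 16.5 CPM in knockout and 31.3 ± 12.9 CPM in control livers (SD, n = 4 each; log2 fold change 1.43, SE 0.29, adjusted p = 0.0820 by edgeR), and the groups did not overlap. The sterol exporter Abca1, another LXR target, had a log2 fold change of 0.15 (95% interval −0.19 to 0.49). The median of the 7 was −0.18, with 3 values above 0 and 4 below, the lowest in Abcg1 (−0.57).

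Fatty acid synthesis is controlled by the related factor SREBP1c. Of 10 genes of that pathway, 6 (60%) were higher at an unadjusted p under 0.05, against 5.55% of all genes, and none was called by edgeR. The groups did not overlap in 1 of the 10 (Scd1). The median log2 fold change was 0.93, against 0.10 for the 31 genes. Its value without control 2, the lowest library in this list, is not given here. The 6 were Srebf1 (0.91), Fasn (1.04), Elovl6 (0.96), Scd1 (1.56), Me1 (1.12) and Thrsp (1.41), as log2 fold changes. The mean level of the 10 genes relative to all libraries was 0.13 on the log2 scale in knockout 1 and 0.62 to 0.69 in the other knockouts, against −2.0 in control 2 and −0.48 to 0.28 in the other controls. For the 8 mevalonate genes the same measure was 0.60 in knockout 1 and −0.11 to 0.13 in the other knockouts, against −0.82 in control 2 and 0.02 to 0.12 in the other controls. Control 2 was thus lowest in both lists, and knockout 1 was highest in the mevalonate genes but the lowest knockout in the fatty acid genes. How far the libraries' Alb share or Y-linked reads bear on these orders was not tested.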

How the data were processed

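Liver RNA of 4 knockout and 4 control samples was read on a HiSeq X10 (Illumina), per the labels' protocols. The submitters' processing notes name CASAVA 1.8, Bowtie, TopHat2 and GRCm38; no source used here gives the counting program, annotation or strand setting. The authors deposited estimated counts per gene, not normalized, of which 94.17% were whole. These were rounded; 5954 of 22183 genes were then 0 in all libraries.

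Genes were filtered with filterByExpr, scaled by TMM and tested with edgeR 4.0.16 (R 4.3.3), without covariates. DESeq2 1.42.0 and limma-voom 3.58.1 were alternatives. CPM uses the scaled library size; levels of lists use log2 CPM with a prior count of 2. Sampling at a depth of 15998391 to 19474696 counts adds most to the spread of genes of a few CPM (Ggps1, Mylip and Lbr). Their SEs were 0.205, 0.227 and 0.196, and more abundant genes had SEs on both sides of these, such as Insig1 (0.426) and Abcg8 (0.142). The 31 genes and the lists beside them were chosen with earlier results of these data known. Values in every library were given for genes with an unadjusted p under 0.05, genes whose groups did not overlap and the 4 with the widest range, and for Hmgcs1, Msmo1 and Scarb1, added after values were seen. The labels number the samples but do not say that each is a separate animal, so p-values measure the spread between these samples. Within each genotype, every pair of libraries was compared with repeat reads of the same library, which would differ by sampling alone. The median chi-square per gene was at least 1.29 (knockouts 3 and 4), so no pair was treated as repeat reads. That check cannot tell separate preparations of the same liver from separate livers. Same-numbered samples of the genotypes did not deviate together throughout (correlations 0.324, −0.247, 0.0938 and 0.183 for replicates 1 to 4), so they were not paired. Libraries were classed by more than 10 Y-linked counts. Gene coordinates and exon lengths came from GENCODE M21. The procedure was run on simulated data with planted changes larger than any main log2 fold change of the 31 genes (−0.985 to 0.913). That run therefore does not show how well changes of the sizes reported here would be found.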

Additional observations from a re-analysis of the deposited data

Results flagged for a closer look

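In 5 of the 62 groups of 4 libraries screened (31 genes in each genotype), the highest or lowest library stood apart from the other 3 by more than Dixon's 95% criterion for the gap over the range; chance gives about 1 in 20 groups. Insig2 in control 2 was at 556 CPM, with the other controls at 192 to 220 CPM (gap over range 0.922). Lss, lanosterol synthase, was at 13.9 CPM in control 2, with the other controls at 33.1 to 36.5 CPM (0.851). Msmo1 in knockout 1 was at 273 CPM, with the other knockouts at 111 to 131 CPM (0.882). Tmem97 in control 1 was at 40.4 CPM, with the other controls at 63.5 to 68.1 CPM (0.833), and Nr1h3 in control 4 was at 61.0 CPM, with the other controls at 42.3 to 44.5 CPM (0.883).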

How the results depend on the processing

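Abcg8, Mvd, Tm7sf2, Ebp, Fdps, Insig2, Abcg5, Scarb1, Acat2, Pmvk, Lss, Nr1h3, Ggps1, Scap and Mylip kept their direction in all 21 alternatives that gave a value, and Abcg8 had an unadjusted p under 0.05 in 21 of 21. The count of all genes called, 4, was 79 at an adjusted p under 0.1, 11 with upper-quartile scaling, 1 without scaling factors, 62 without a filter, 8 with a filter of 1 CPM in 4 libraries, 269 with DESeq2, 0 with limma-voom, 187 without controls 2 and 3, 27 with a term for Y-linked reads, 125 in libraries with Y-linked reads alone, and 0 to 324 when each library was left out (324 without control 3, 67 without knockout 1). With the replicate number as a block (replicate block) 0 genes were called, and no call among the 31 changed. The numbers did not pair the samples throughout. Knockouts 1, 3 and 4 correlated best with the control of the same number, but knockout 2 correlated best with control 3. Of the 31 genes, 1 was called by DESeq2 (Abcg8) and 0 to 1 when a library was left out (Abcg8 without control 3, where 324 of all genes were called). In the libraries lacking Y-linked reads the log2 fold change of Mvd was 1.95. That arm is knockout 1 alone against controls 1 and 2, with its spread assumed equal to that of the other libraries, so this value describes that library. The number at an unadjusted p under 0.05, 6, was 3 without controls 2 and 3, 13 in that same comparison of knockout 1, and 3 to 7 with each library left out, lowest without control 2. Median log2 fold changes of the regulators were −0.0397 without controls 2 and 3, −0.0771 in libraries with Y-linked reads, and −0.0449 to 0.124 with each library left out. Those from squalene to cholesterol were −0.11 with and 0.63 without Y-linked reads, and that of the mevalonate genes 0.99 without. Without scaling factors Stard4 was −0.0016. Log2 fold changes that changed sign without controls 2 and 3 were Mvk −0.18, Msmo1 0.0861, Nsdhl −0.0509, Dhcr7 −0.16, Srebf2 −0.0384 and Stard4 −0.0411. In libraries with Y-linked reads alone they were Hmgcs1 −0.58, Mvk −0.20, Fdft1 −0.13, Nsdhl −0.0935, Sc5d −0.0273, Dhcr7 −0.14, Srebf2 −0.10, Insig1 −0.34, Stard4 −0.0547 and Tmem97 −0.0117, and in those lacking them Idi1 0.44, Sqle 0.60, Cyp51 0.52, Lbr 0.35 and Msmo1 1.04. With each library left out the ranges were −0.26 to 0.045 for Cyp51, −0.0219 to 0.39 for Dhcr7, −0.30 to 0.32 for Hmgcs1, −0.0393 to 0.20 for Hsd17b7, −0.51 to 0.0772 for Idi1, −0.25 to 0.0241 for Lbr, −0.44 to 0.20 for Msmo1, −0.06 to 0.38 for Mvk, −0.25 to 0.0857 for Sqle, −0.0023 to 0.20 for Srebf2, −0.0887 to 0.18 for Stard4 and −0.0362 to 0.18 for Tmem97. The cause of these shifts was not tested.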

Other observations

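The ratio of Abcg8 to Abcg5 in CPM was 0.784, 0.908, 0.854 and 0.881 in knockouts 1 to 4 (mean 0.857 ± 0.0532, SD), against 0.966, 0.963, 0.928 and 0.993 in controls 1 to 4 (mean 0.962 ± 0.0269). The groups did not overlap, so Abcg8 was the lower of the pair by more in knockout livers; the ratio was computed after the values were seen and was not tested. The ratio of Insig1 to Insig2 was 2.93, 0.413, 0.812 and 0.711 in knockouts 1 to 4, against 0.412, 0.0897, 0.711 and 0.573 in controls 1 to 4. Insig1 exceeded Insig2 in knockout 1 alone, and control 2 had the smallest ratio of the 8 libraries.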
